A study of Mus musculus with 26 samples.

Results

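The 5000 strongest accessible regions that lie away from gene starts and are open both in pluripotent mouse embryonic stem cells and after a short retinoic acid (RA) treatment are described here. They were chosen by rule from the ATAC-seq peak list of cells kept in leukemia inhibitory factor (LIF). A peak had to lie on chromosomes 1 to 19 or X, share at least 1 bp with a peak of the RA list, and have its summit more than 10 kb from every annotated gene start (GENCODE vM21 on GRCm38). Of 163484 LIF peaks, 163342 lie on these chromosomes, 120757 of them overlap an RA peak, and 62054 of those are distal. The 5000 with the highest fold enrichment over the local background are the members, and the remaining 57054 are called the other shared distal peaks.

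E14 mouse embryonic stem cells were grown without feeders for 48 h, and the last 4 h were spent either with LIF (mESC+) or with 1 µM RA after LIF had been withdrawn (mESC-). Omni-ATAC-seq, in which a transposase cuts open chromatin and attaches sequencing adapters, was carried out on 75000 cells per state. Each state has 1 ATAC-seq library of 1 cell line, so no difference between LIF and RA has a replicate check. The read totals behind the peaks are unknown, and a region opened in more cells cannot be told apart from one opened more often per cell.

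Distal accessible regions comprise enhancers, which bind transcription factors and act on promoters over a distance, and insulators bound by CTCF, the zinc finger protein that halts cohesin and shapes chromatin loops. In mouse embryonic stem cells, OCT4 and SOX2 bind many enhancers together at a composite motif. LIF acts through STAT3 to maintain pluripotency. RA binds the nuclear receptor RARA, which pairs with RXRA, and starts differentiation. Interspersed repeats, the remnants of transposable elements, also carry binding sites and contribute open chromatin to these cells.

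The members' sequences showed 3 recurrent features, namely a CTCF motif near the summit, an OCT4-SOX2 motif in a smaller number, and 2 groups of windows linked by similar sequence. The sequences below are read from GRCm38 and printed 5′ to 3′ on the stated strand. Family A and family B are names given here to the largest and the second largest group of windows joined by alignment. Their printed sequences are the 3 highest ranked members of each that hold the word and have 1 genomic copy. Capitals mark the 8-letter word ACAATAGA, the word most overrepresented in members, and the flanks show that the printed windows of each family share far more than this word.
Family A, rank 9, chr9:79455487-79455574, plus strand: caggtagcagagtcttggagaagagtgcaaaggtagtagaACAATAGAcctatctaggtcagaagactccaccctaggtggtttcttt
Family A, rank 32, chr12:6595559-6595646, minus strand: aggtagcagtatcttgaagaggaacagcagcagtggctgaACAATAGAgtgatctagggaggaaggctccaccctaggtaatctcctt
Family A, rank 34, chr4:66737524-66737611, minus strand: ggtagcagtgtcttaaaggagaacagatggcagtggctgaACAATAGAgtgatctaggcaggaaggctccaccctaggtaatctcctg
Family B, rank 474, chr8:54014288-54014375, minus strand: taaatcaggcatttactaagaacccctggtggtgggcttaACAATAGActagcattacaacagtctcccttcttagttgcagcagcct
Family B, rank 533, chr14:84248092-84248179, minus strand: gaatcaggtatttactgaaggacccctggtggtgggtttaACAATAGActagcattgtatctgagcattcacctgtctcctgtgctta
Family B, rank 672, chr8:5094178-5094265, plus strand: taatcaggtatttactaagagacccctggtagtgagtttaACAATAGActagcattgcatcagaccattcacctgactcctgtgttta

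The next 6 sequences show the motifs at their clearest. They are the members with the fewest mismatches to CTCF and to OCT4-SOX2, taken by rank among those with 1 genomic copy, and capitals mark the match. The CTCF examples lie in an intron of Abi3bp, 10.2 kb from the start of Prdm13, and in a gene intron whose nearest coding gene is Shank2. The first OCT4-SOX2 example lies 47.3 kb from the start of Elavl2, and the other two have Trpc7 and Ebf1 as the nearest coding genes, at 467 kb and 225 kb.
CTCF, rank 40, chr16:56524531-56524588, plus strand: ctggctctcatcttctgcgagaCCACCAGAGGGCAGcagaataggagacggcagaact
CTCF, rank 41, chr4:21696064-21696121, minus strand: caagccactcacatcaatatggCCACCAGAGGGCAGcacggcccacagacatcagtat
CTCF, rank 70, chr7:144181065-144181122, minus strand: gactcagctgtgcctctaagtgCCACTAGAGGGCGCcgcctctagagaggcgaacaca
OCT4-SOX2, rank 62, chr4:91448023-91448081, plus strand: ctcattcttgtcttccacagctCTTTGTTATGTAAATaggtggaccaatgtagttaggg
OCT4-SOX2, rank 185, chr13:57362750-57362808, minus strand: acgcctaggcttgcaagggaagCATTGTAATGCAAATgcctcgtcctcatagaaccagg
OCT4-SOX2, rank 4310, chr11:44841860-44841918, plus strand: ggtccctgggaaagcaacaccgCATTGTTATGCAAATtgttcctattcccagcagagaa

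The members were selected on the LIF fold enrichment, so its values are given as a description only. It ranged from 15.2 to 41.3 with a median of 17.2 (quartiles 16.1 and 19), against a median of 7.62 in the other shared distal peaks. All members lie at or above percentile 94.2 of the LIF list, where 100 is the highest peak. The line fell within a tie. Of 9 candidates at 15.2, 3 are inside and 6 outside. The last 3 inside had RA fold enrichments of 10.7, 12.4 and 16.8, and the first 3 outside had 7.11, 14.8 and 15.1. Members were also wider, with a median of 324 bp (126 to 1108 bp) against 195 bp.

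The strongest member, on chromosome 3 between positions 5860451 and 5860824, had no annotated gene over it and lay 20.4 kb from the start of the microRNA gene Gm25352. Its fold enrichment was 41.3 in LIF and 39.5 in RA, the highest member value in both lists. Its 300-bp window matched 23 other stretches of at least 80 bases on 14 chromosomes, with an identity of 81.5% to 98.9%, so reads from similar sequence elsewhere may be counted there, which was not tested. The second, on chromosome 8 near Gm45677, had 31.4 in LIF and 27.9 in RA, and its window occurs 9 times in near-identical form, itself included. The 3 next members had 28.7, 28.6 and 28.1 in LIF and 26.1, 25.6 and 24.7 in RA, with Gm9299, Gm48482 and Gm22789 as the nearest genes. Rank 6 lies in an intron of Pdlim5, which encodes a scaffold protein with PDZ and LIM domains, and had 27.8 in LIF and 22 in RA. Ranks 7 to 10 had 27.6, 27.5, 27.4 and 27.2 in LIF and 25.4, 25.0, 23.9 and 22.2 in RA, near Gm13617, 1700044K03Rik, Gm35262 and Gm43826. Of these 10 members, 9 have a noncoding gene, a pseudogene or a gene without assigned biotype as the nearest start.

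The question of rank agreement is whether the strongest distal regions in LIF are also the strongest in RA, a value the rule did not use apart from the overlap. The strongest RA peak overlapping a member had a median fold enrichment of 15.4 (5.61 to 39.5) and a median percentile of 95.9 in the RA list (quartiles 91.9 and 98.2, 5th percentile 81.7, minimum 35.0). For the other shared distal peaks, the median RA percentile was 56.3. Of the members, 99.9% (4993) lay above the RA median, 81.7% (4083) above percentile 90 and 14.8% (741) above percentile 99. In the other shared distal peaks, 5.69% lay above percentile 90. The height of a member in LIF was thus followed by a high rank in RA in nearly every case, while 7 members lay in the lower part of the RA list.

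When the rule was mirrored and the 5000 strongest shared distal peaks were chosen in the RA list, 3472 members (69.4%, exact 95% interval 68.1% to 70.7%) overlapped a peak of that list. These are 3473 (69.5%) of the mirrored peaks. The overlap fell along the ranks, from 93.7% of ranks 1 to 1000 to 79.8%, 67.4%, 56.8% and 49.5% in the following steps of 1000. The median RA percentile fell in parallel from 99 to 93. Within the members, fold enrichments in LIF and RA had a Spearman correlation of 0.530 and a Pearson correlation of 0.551 on the log2 scale (n = 5000). Over all shared distal peaks these were 0.773 and 0.794 (n = 62054), with a wider span of heights. On -log10 p, the Spearman correlation was 0.720 in members and 0.713 in the other shared distal peaks. Regions are not independent samples, 2 libraries stand behind every point, and all intervals here cover counting error over regions only. The summits of the LIF and the RA peak were a median of 12 bp apart in members and 22 bp in the other shared distal peaks.

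**Figure D1:**
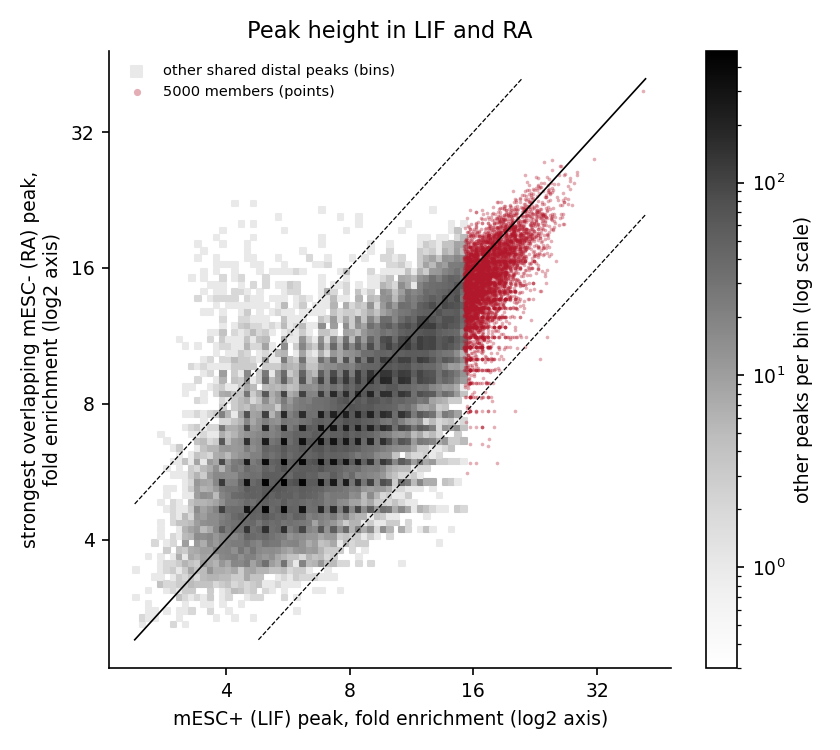
Fold enrichment of each shared distal peak in mESC+ (x axis) and of the strongest overlapping peak in mESC- (y axis), both on log2 axes. Grey squares bin the 57054 other peaks by count, red points are the 5000 members, the solid line marks equal height and the dashed lines a 2-fold difference before centring; members start at 15.2 on the x axis because they were selected there, and they lie mostly just under the line of equal height.

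The RA value was then set against the LIF value of the same region. The log2 ratio of RA over LIF was centred on its median over all shared distal peaks (-0.0972). This removes a shift common to all peaks, but not a difference between the libraries that varies with peak height. The members' median was -0.10 (quartiles -0.27 and 0.05), with 1667 members above 0 and 3330 below. Members were selected on a high LIF value, which by itself places their RA value lower. Past a 2-fold difference, 0 members were higher in RA, against 1.01% of all shared distal peaks (628 of 62054), a direction the selection limits. Lower in RA were 22 members (0.440%), beside 0.438% of all shared distal peaks, so the members' share is at the background. Without the centring, 42 members were past 2-fold. The uncentred share over all shared distal peaks was not computed, so this count has no background beside it.

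The member with the largest fall, on chromosome 1 near Gm5973, went from 18.3 in LIF to 5.93 in RA, a centred log2 ratio of -1.53. It was followed by members near Gm27975 (15.5 to 5.61), F830002E08Rik (16.3 to 5.93), Gm43826 (17.4 to 6.46) and Fam216b (15.7 to 5.93). The next members lay 10.1 kb from the start of Adamts10, a secreted metalloprotease gene (20.2 to 7.70), and in an exon of Skap1, which encodes a T cell adaptor protein (17.5 to 6.70). Members near Gm45163 and Gm16630 and in an intron of Pxdn, the gene of the matrix peroxidase peroxidasin, completed the 10 lowest, with ratios of -1.27, -1.24 and -1.17. The 22 members past 2-fold were narrow, with a median width of 228 bp, and their RA percentiles ranged from 35.0 to 84.7. A CTCF motif was held by 1 of them, beside 19.5% of all members. In a dynamic enhancer region lay 0, beside 0.480% of all members, a share too low for the 0 to be informative among 22.

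The largest rise was smaller. A member near Gm13464 on chromosome 2 went from 15.7 in LIF to 21.5 in RA, a centred log2 ratio of 0.55. Members near Gm25663 and Gm22183 and in an intron of Pdzph1 had ratios of 0.52, 0.49 and 0.48. Spata18, Gse1, Foxo6 (a forkhead factor), Bbx, Egflam and Vps13c lie nearest to, or hold in an intron, most of the other members among the 10 highest, with ratios of 0.42 to 0.46. The nearest start to the member by Gse1 is that of the lincRNA A330074K22Rik. These 10 members have ranks 2942 to 4948 and LIF values of 15.2 to 16.8.

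Motifs were searched on both strands in 300 bp centred on each LIF summit, a property the rule did not use. CTCF and the composite OCT4-SOX2 motif were searched as consensus sequences with at most 1 and at most 2 mismatches, and the paired half-sites of RARA-RXRA with at most 1. The others were searched without mismatches as the octamer ATGCAAAT or ATGCTAAT, ESRRB TCAAGGTCA, SOX CATTGTT, KLF GGGTGTGG, the GC box GGGGCGGG, STAT3 TTCCNGGAA, TEAD ACATTCC, AP-1 TGANTCA, the E-boxes CACGTG and CAGCTG, NRF1 CGCATGCG, YY1 AAGATGGC, the left part of REST TTCAGCACC, RFX GTTGCCATG, ETS CCGGAAGT, NFY CCAATCA and CRE TGACGTCA. The octamer overlaps the OCT4 part of the composite motif. Of these 20 motifs, 6 had a share in members whose 95% interval lay above that of the other shared distal peaks, 3 lay below, and 11 overlapped. A match describes letters and not binding.

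A CTCF motif was present in 975 members (19.5%, 18.4% to 20.6%), in 13.0% of the other shared distal peaks and in 2.35% of 27025 promoters of the same length from RefSeq. Matches without mismatch were found in 5.96% of members and 3.45% of the others. The share was level along the ranks, between 18.3% and 20.2% in steps of 1000 members. It depended on the measure of strength. Among the 5000 regions of highest -log10 p, which favors wide peaks, the CTCF share was 14.7% against 13.4% in the rest. Members with the motif were narrower (median 267 bp) than members overall. The motif lay close to the summit, with a median distance of 26.0 bp, and 92.8% of the matches were within 50 bp. Of 355 neighbouring pairs of members with a CTCF motif at most 1 Mb apart, 75 (21.1%) had motifs pointing towards each other, 109 (30.7%) away from each other and 171 (48.2%) in the same direction. Of 6831 such pairs of other shared distal peaks these were 24.5%, 25.1% and 50.4%. The members' intervals include the first (17.0% to 25.7%) and the last (42.9% to 53.5%) of these shares, and that of the second is 25.9% to 35.8%.

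The OCT4-SOX2 motif was found in 185 members (3.70%, 3.19% to 4.26%), in 1.71% of the other shared distal peaks and in 0.340% of promoters. The octamer alone occurred in 8.68% of members and 5.91% of the others. Of the members with the composite motif, 84 also held the octamer and 2 held a CTCF motif. A median distance of 34.5 bp separated the composite motif from the summit, and 69.7% of the matches lay within 50 bp. The ratio between members and the other shared distal peaks was 2.17 and ranged from 1.58 to 2.58 over 12 settings of the rule and the search, against 1.09 to 1.79 for CTCF.

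Members with an OCT4-SOX2 motif were higher in RA relative to LIF than members with a CTCF motif. Their median centred log2 ratio was -0.03 (quartiles -0.16 and 0.11, 44.9% above 0) against -0.14 (quartiles -0.31 and -0.00, 24.8% above 0), and their median RA percentile was 97.1 against 95. In the mirrored RA list lay 82.2% (75.9% to 87.4%) of the former and 63.8% (60.7% to 66.8%) of the latter. In the other shared distal peaks the same 2 medians were 0.01 and -0.03. Both groups had nearly equal LIF medians (17.4 and 17.3) but unlike median widths, 370 bp with OCT4-SOX2 and 267 bp with CTCF. Whether width is behind the difference was not tested, and no test between the states was possible with 1 library each.

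NFY, a factor that binds CCAAT boxes, had its motif in 8.10% of members and 5.48% of the others, close to the 8.20% of promoters. The E-box CAGCTG, bound by many bHLH factors, was present in 21.1% of members and 18.9% of the others, and AP-1 in 11.8% and 10.6%. Lower in members were ESRRB, an orphan nuclear receptor of the pluripotency network (0.780% against 1.49%), RARA-RXRA (4.48% against 6.12%) and YY1 (2.06% against 2.65%). SOX, KLF, GC box, STAT3, TEAD, NRF1, REST, RFX, ETS, CRE and the E-box CACGTG had overlapping intervals. Some promoter motifs were rare here. The GC box occurred in 3.36% of members and 16.7% of promoters, and ETS in 0.780% and 4.00%.

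**Figure D2:**
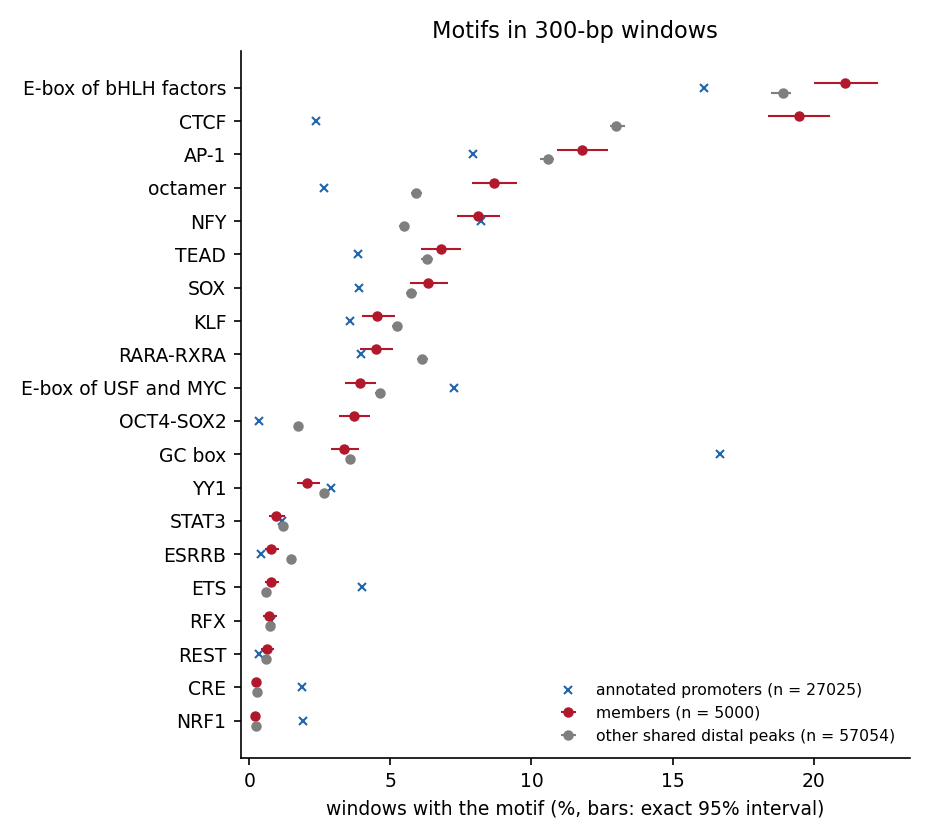
Share of 300-bp windows (x axis, percent) that hold each of 20 motifs (y axis) in members (red, n = 5000), the other shared distal peaks (grey, n = 57054) and annotated promoters (blue crosses, n = 27025), with exact 95% intervals as bars. CTCF (19.5% against 13.0%) and OCT4-SOX2 (3.70% against 1.71%) separate most clearly from the other peaks, and the GC box (3.36%) lies far below its promoter share; the E-box of bHLH factors is CAGCTG and that of USF and MYC is CACGTG.

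**Figure D3:**
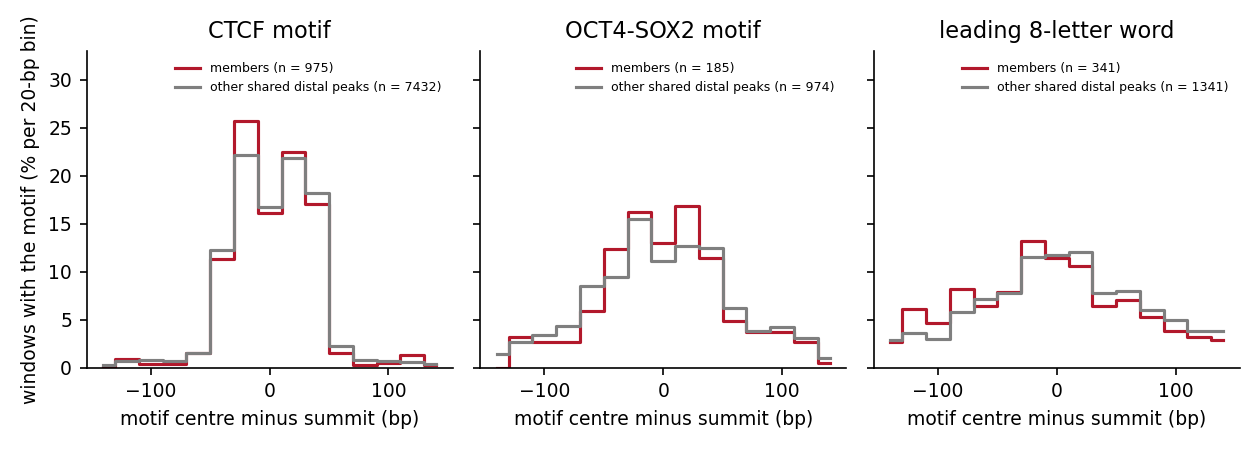
Position of the motif centre relative to the LIF summit (x axis, bp) as the percent of windows with the motif per 20-bp bin (y axis), for members (red) and other shared distal peaks (grey). CTCF matches fall within 50 bp of the summit in 92.8% of members with the motif, OCT4-SOX2 matches in 69.7%, and the leading 8-letter word is spread more widely, with a median distance of 51.0 bp.

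All 8-letter words present in at least 250 member windows were also compared, with both strands joined. The largest ratio was that of ACAATAGA (reverse complement TCTATTGT), present in 6.82% of members and 2.35% of the other shared distal peaks, a ratio of 2.90. It was followed by AACAATAG (2.75), CTACCTGC (2.31), AGCAGGTA (2.14) and AGGGTGGA (1.93). The share of ACAATAGA was 10.1% in ranks 1 to 1000 and 6.00% in the last 1000 ranks, and 0.862% in promoters. ACAATAGA and AACAATAG contain the core letters that SOX factors bind (ACAAT), but the SOX word CATTGTT itself was present in 6.34% of members and 5.73% of the others. On average 53.7% of the bases of members with either leading word were marked as repeats in the reference sequence, compared with 21.7% in all members.

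Many members with these words share repeated sequence. Over the 15 leading words, 35.9% (AGCTCAGG) to 77.9% (AACAATAG) of the members with the word belong to families A and B. Member windows were aligned to one another, and windows that aligned over at least 150 bases at 75% identity or more were joined, a measure chosen after the words had been seen. Windows of a group may thus be linked only through others and not align directly. Of the 5000 members, 935 (18.7%) aligned to at least 1 other member. The largest group, family A, holds 330 members (6.60%) and the second, family B, 164 (3.28%), whereas the third holds 57. Where alignments of 100 bases sufficed, both joined in 1 group of 721 members. Families A and B account for 134 of the 1000 strongest members (13.4%). No window of either family is free of repeat-masked bases, and the mean masked share is 60.8% in A and 78.3% in B. The repeat families are not named in the annotation used here.

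Both families were more frequent in members than in the other shared distal peaks. Of the latter, 1081 (1.89%) aligned to a member of family A and 473 (0.829%) to a member of family B. The families were defined in members, which favors members in this comparison. For each family, 1 window was also used alone as a template, the member aligned to most other members of its family. This choice rests on the members too, so the template shares are a description with the same limit. The template of family A aligned to 2.74% (2.31% to 3.23%) of members and 0.619% (0.556% to 0.687%) of the others, and that of family B to 2.44% (2.03% to 2.91%) and 0.345% (0.299% to 0.397%). Ranked by -log10 p, the 5000 strongest regions held 323 windows of family A and 170 of family B. In the whole genome, 1383 stretches aligned to the template of A, of which 811 (58.6%) overlapped a LIF peak, 748 (54.1%) an RA peak and 140 (10.1%) a member. For B these were 830 stretches, 566 (68.2%), 517 (62.3%) and 127 (15.3%). In each state, most stretches aligned to either template were thus listed as open. Each template is itself a member and did not align to every member of its family. The share of open copies in a whole family was therefore not measured.

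The families differed in what they hold. ACAATAGA was present in 54.8% of family A members and in 82 of the 164 family B members. CTACCTGC (56.1%), ACCTGCTG (60.3%) and the E-box CAGCTG (45.8%) occurred in family A, and in family B they were present in 0%, 0% and 1.22%. AGCTCAGG was present in 54.3% of family B and 3.64% of family A. The OCT4-SOX2 motif was found in 1 member of A and 0 of B, and CTCF in 32 and 0. GC content was 49.6% ± 3.21 (SD, n = 330) in A and 42% ± 1.90 (SD, n = 164) in B. Of the members with ACAATAGA, 77.1% belong to these families. With both families left out of members and other peaks, its share was 1.73% and 1.35%, a ratio of 1.28, and the 15 leading words all fell to ratios between 0.960 and 1.28. The leading word outside the families was then the octamer ATGCAAAT, with 5.19% of members and 3.56% of the others. The ratios of OCT4-SOX2 (2.34), CTCF (1.58) and NFY (1.59) were no lower without the families, while those of the E-box CAGCTG and AP-1, both 1.12 over all windows, were 1.08 and 1.10.

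In RA, family A members had a median fold enrichment of 16.1 (LIF 18) and family B members 16 (LIF 17.4). Their median centred log2 ratios were -0.08 and -0.01, against -0.10 in members of neither family. In the mirrored RA list lay 77.9% and 84.1% of them, against 68.3%. They were also wider, with medians of 368 bp in A and 410 bp in B against 318 bp. Ranks 1 to 1000, where the mirrored share is highest, hold 101 members of A and 33 of B. Whether width or rank is behind these shares was not tested. Family members lay less often in introns, 22.4% (18% to 27.3%) of A and 23.8% (17.5% to 31.0%) of B, compared with 50.4% of the remaining members. Near-identical copies elsewhere in the genome, among which short reads may not always be placed uniquely, were found for 49 members of family B (29.9%) but 6 of family A (1.82%). Over all members the number was 109 (2.18%), against 1.59% of the other shared distal peaks, and 0 windows matched the mitochondrial genome.

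**Figure D4:**
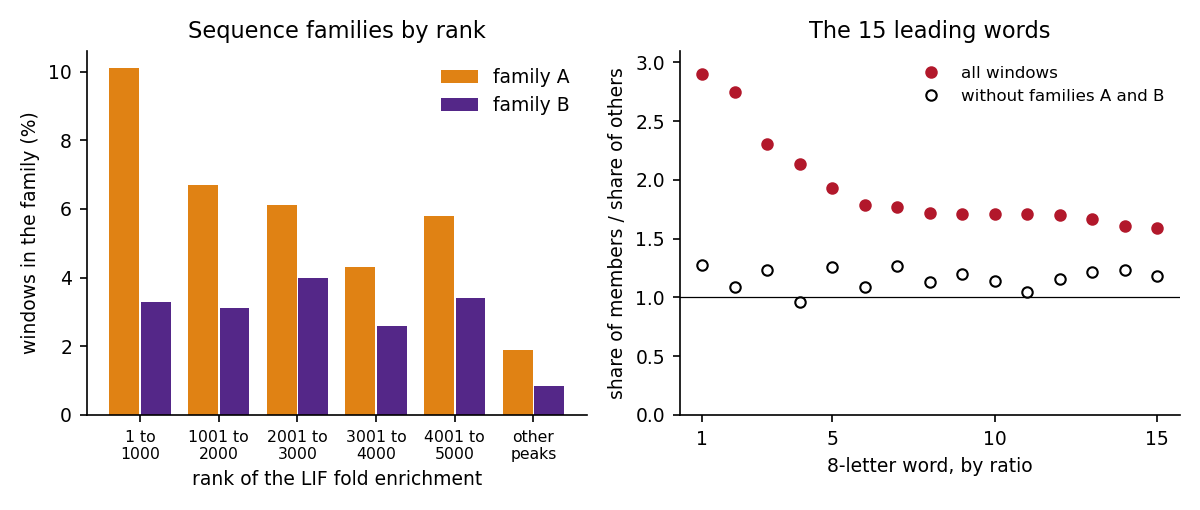
Left, share of windows (y axis, percent) in family A (orange) and family B (purple) by steps of 1000 ranks of the LIF fold enrichment and in the other shared distal peaks. Right, ratio of the share of members to the share of other peaks (y axis) for the 15 leading 8-letter words (x axis, by ratio), over all windows (red) and without both families (open circles), where the ratios fall from between 1.59 and 2.90 to between 0.960 and 1.28.

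By position, 2382 members (47.6%, 46.2% to 49.0%) lay in introns, 2375 (47.5%) outside annotated genes and 243 (4.86%) in exons. In the other shared distal peaks these shares were 50.3%, 43.1% and 6.51%. The median distance to the nearest gene start was 30592 bp in members (quartiles 17542 and 57207 bp) and 27634 bp in the others. The nearest start was that of a protein-coding gene for 36.5% of members and 40.3% of the others, and of a processed pseudogene for 21.8% and 18.2%. To protein-coding starts alone, the medians were 64488 and 52782 bp. Median GC content was 49.7% in members and in the others, and the mean was 49.5% to 50.4% in steps of 1000 members. CpG was depleted, with a mean observed over expected ratio of 0.207 in members, 0.236 in the other shared distal peaks and 0.464 in promoters.

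The density of members ranged from 1.59 to 2.21 members per Mb on the autosomes and was 0.813 on X, where the other shared distal peaks were sparse too, and members made up 9.10% of X candidates against 6.99% to 9.53% on the autosomes. Members were scattered. Of the 5000, 4735 (94.7%) had no close neighbour among the members, 125 groups held 2, and 5 groups held 3, over 12.6 to 18.8 kb. The groups of 3 lay outside genes near Ctnnd2, which encodes the neuronal catenin delta-2 (16.9 to 22.1 in LIF, 10.7 to 21.2 in RA), and near Gm17934 (16.6 to 19.3 and 10.7 to 20.8). The other 3 lay in introns, with Hivep2, Dgkg and Nhsl2 as the nearest coding genes and RA values between 10.4 and 19.8. The pairs with the highest LIF values had Csrnp3, Phactr3 with Zfp931, Ltn1, Pigm with Slamf9, and Prim2 as their nearest coding genes. The members had 3516 different nearest coding genes, 2591 of them with 1 member. The coding gene nearest to most members was Csmd3 (11 members of 62 shared distal peaks), named after its count was seen.

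The labels were checked against genes that mark embryonic stem cells. A LIF peak lay within 1 kb of the start of 19 of 22 pluripotency genes and an RA peak at 18. Starts of 5 of 8 primitive endoderm, 5 of 7 fibroblast and 4 of 8 genes of other tissues had a LIF peak too, so an open start alone does not separate these lists. Within 100 kb of the pluripotency genes, 12 of 241 shared distal peaks (4.98%) were members, near 8 of the 22 genes, beside 8.06% of all shared distal peaks. Those near Sox2, which encodes the partner of OCT4, had 13.5 and 18.5 in RA at 84.7 kb and 95 kb from its start, with centred log2 ratios of -0.28 and 0.21. Klf5, Tfcp2l1 and Zfp42 had 2 members each, and Dppa3, Lin28a, Sall4 and Mycn 1 each. Pou5f1, Nanog, Klf4, Esrrb and Prdm14 had 0.

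Of the LIF pathway, 1 of 62 shared distal peaks near its 7 genes was a member, near Il6st, which encodes the shared receptor subunit gp130. For 12 genes that respond to RA, 4 of 89 were members (4.49%), 2 near Dhrs3, a retinaldehyde reductase gene (13.6 and 16.3 in RA), 1 near Stra8 and 1 near Cdx1. Primitive endoderm genes had 5 of 49, near Gata4, Gata6, Sox17, Foxa2 and Lama1, fibroblast genes 4 of 25, and genes of other tissues 4 of 25. These small counts were not tested.

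The dynamic enhancer regions are those for which the authors' random forest CRUP, run on H3K4me1, H3K4me3 and H3K27ac ChIP-seq, gave an enhancer probability that differed between the states. Cluster 1 (186 regions) is active in mESC+ and cluster 2 (141 regions) in mESC-. The probabilities selected these regions, so their contrast is a description. Of the 5000 members, 24 (0.480%, 0.308% to 0.713%) overlapped a region, 21 in cluster 1 and 3 in cluster 2, each in a region of its own. Of the other shared distal peaks, 243 (0.426%, 0.374% to 0.483%) did, so the shares did not separate. Ranked by -log10 p, however, 48 of the 5000 strongest regions (0.960%) overlapped one, against 0.384% of the rest. Of the shared distal peaks in cluster 1, 11.8% (7.45% to 17.5%) were members, and in cluster 2 3.37% (0.701% to 9.54%). Both intervals include the 8.06% of all shared distal peaks that are members.

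Families A and B held 14 of the 21 members in cluster 1 (66.7%, 43.0% to 85.4%), 9 from A and 5 from B, beside 9.88% of all members. Ranked by -log10 p, they held 11 (A) and 7 (B) of the 48 regions that overlapped either cluster, compared with 9 and 5 of 24 by fold enrichment. Of the other shared distal peaks in cluster 1, 21 of 157 (13.4%, 8.47% to 19.7%) belonged to them. Of all other shared distal peaks, 1.89% belonged to A and 0.829% to B, so the families were frequent in cluster 1 there too. The 9 and 5 members are 2.73% (1.25% to 5.11%) of family A and 3.05% (0.997% to 6.97%) of family B. Among the other shared distal peaks, 0.648% (0.261% to 1.33%) of family A windows and 2.96% (1.63% to 4.92%) of family B windows overlapped a region. For family B the shares were thus alike in members and others. Without both families, 10 members remained in dynamic regions (0.222%, 0.106% to 0.408%), against 0.400% of the other shared distal peaks. The families were defined without the dynamic regions, but their link was looked for after the values had been seen.

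In the 21 members of cluster 1, the enhancer probability was 0.790 to 0.980 in mESC+ (median 0.901) and 0 to 0.320 in mESC- (median 0.00860). Their ATAC-seq height changed little beside this, but the rule limits such change, since a region without an RA peak cannot be a member. Members lie in 21 of the 186 regions of cluster 1. Over all dynamic regions, the paper reports ATAC-seq counts that follow the clusters. The height of the 21 members had a median of 17.6 in LIF and 16.8 in RA, and their RA percentiles ranged from 83.0 to 99.8. Their centred log2 ratios ranged from -0.42 to 0.22, with 10 above 0 and 11 below. The strongest, on chromosome 4 from 26944609 to 26945029 (nearest coding gene Manea, nearest gene Gm11904), belongs to family A and had 22.2 in LIF and 20.2 in RA, while its region went from a probability of 0.960 to 0.0360. The member in family A near Gm47486 had 21.1 and 17.3, and that in family B near Gm25144 had 20.0 and 18.9, both with a probability of 0 in mESC-. Near Znrf1, the gene of a ubiquitin ligase, height rose from 19.8 to 21.2 as the probability went from 0.874 to 0.0249. The member near B530045E10Rik, 90.4 kb from the start of Dusp6, a phosphatase that acts on ERK, was the only one of cluster 1 with an OCT4-SOX2 motif (15.7 in LIF, 13.4 in RA).

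The remaining members of cluster 1 lay near Gm7463, Gm25811, Gm14733, Gm29141, Gm11350, Gm42844, Gm18188, Gm25650, Gm23275, Gm34047, Gm26485, H2al1k, Akr1c21, Gm5466, Gm23745 and Gm43185. Their LIF heights ranged from 15.6 to 19.3 and their RA heights from 10.8 to 20.8. The lowest RA value was that of the member near Gm43185, the highest that near Gm25811. Protein-coding genes are the nearest gene to 3 of the 21 members of cluster 1 (Znrf1, H2al1k and Akr1c21). The share was 36.5% over all members, and this small count was not tested.

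All 3 members in cluster 2 were lower in RA than in LIF, opposite to the direction of their enhancer probability. On chromosome 4 from 151387125 to 151387497, in a gene intron near 4930589P08Rik, height was 17.0 in LIF and 11.1 in RA, and the probability went from 0.0194 to 0.912. On chromosome 11 from 4302300 to 4302854, 44.9 kb from the start of Lif itself and nearest to Gm11958, it was 16.5 and 12.2, with 0.00980 and 0.874. On chromosome 4 from 145034552 to 145034878, nearest to Gm38074 and 142 kb from the start of Dhrs3, it was 15.5 and 12.6, with 0 and 0.990. With 1 library per state and selection on LIF height, these 3 falls have no test. The OCT4-SOX2 matches of both members in dynamic regions that hold one are printed for comparison with those above, with the match in capitals.
Cluster 2, rank 2681, chr4:151387275-151387333, minus strand: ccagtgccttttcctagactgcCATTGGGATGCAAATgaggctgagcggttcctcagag
Cluster 1, rank 4164, chr10:99353664-99353722, plus strand: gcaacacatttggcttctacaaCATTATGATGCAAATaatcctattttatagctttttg

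**Figure D5:**
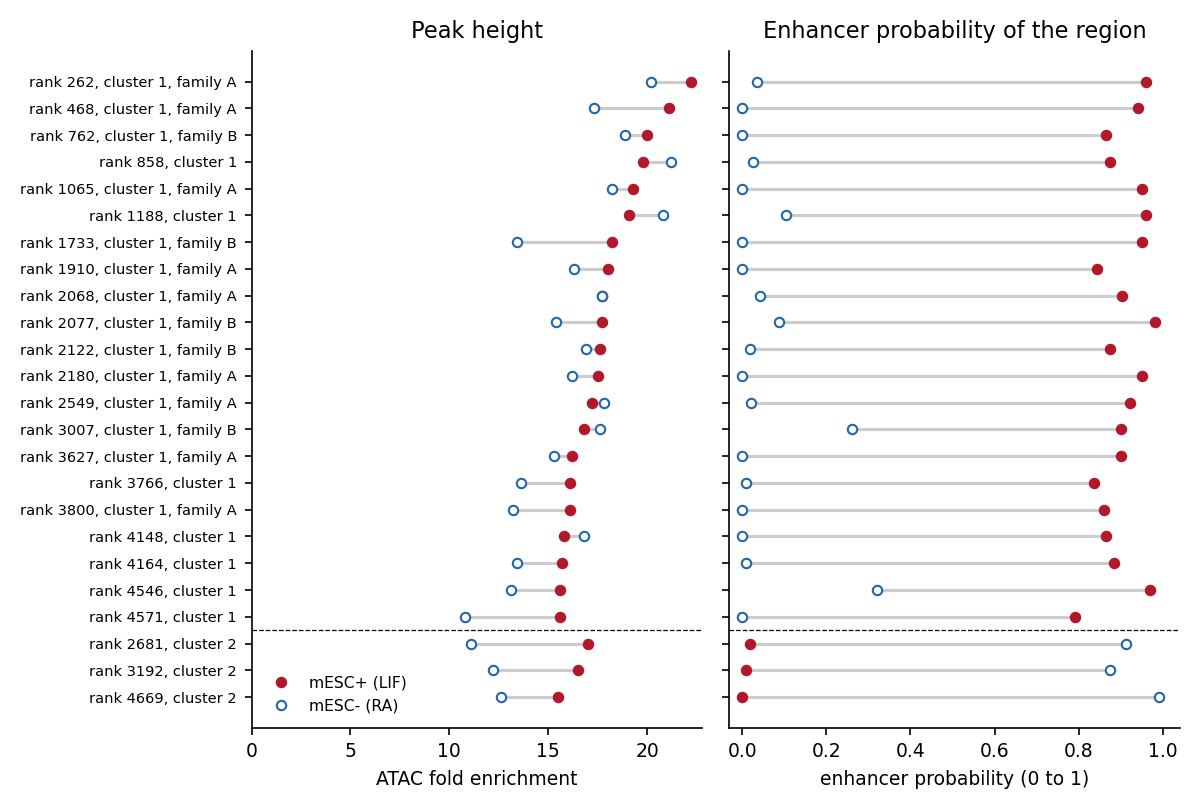
The 24 members in dynamic enhancer regions, 1 per row, with ATAC-seq fold enrichment (left) and the enhancer probability of the region (right, 0 to 1) in mESC+ (red) and mESC- (open blue); the dashed line separates cluster 1 from cluster 2. In cluster 1 the probability drops from at least 0.790 to at most 0.320 while the heights stay between 10.8 and 22.2, and in cluster 2 the 3 heights are lower in mESC-.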

How the data were processed

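Omni-ATAC-seq was done in 2 states of E14 cells, 1 library each. After alignment to GRCm38 (BWA-MEM) and removal of duplicates (SAMtools), the authors called peaks per library with MACS2, whose version and parameters are not given in the sources used here. The deposited peak lists hold a fold enrichment, which ranks the members, and −log10 p and q values. The deposited dynamic regions carry enhancer probabilities, a fraction from 0 to 1 that the authors obtained with CRUP. Their p-values, and an expression table with DESeq2 fold changes and p-values, were not used.

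Gene starts were taken from GENCODE vM21, sequence and repeat masking from GRCm38.p6, and promoters from RefSeq. The RA value of a region is that of its strongest overlapping peak. Shares carry exact Clopper-Pearson 95% intervals. Near-identical copies match at least 90% of a window (minimap2 2.31-r1302), and families were joined from BLAST 2.17.0 alignments of at least 150 bases at 75% identity. Scripts ran in Python 3.11.15 with pysam 0.24.0, SciPy 1.17.1, pandas 2.3.3, NumPy 2.4.6 and matplotlib 3.10.9. On simulated data, 12 of 12 checks of the code gave the known answer. The members and all lists were chosen with earlier results of these data known, and no hypothesis test was run. Named genes are those at the 10 strongest members, the 10 first groups of neighbouring members, the members in dynamic regions, the 10 lowest and 10 highest RA over LIF ratios, the printed sequences and the marker lists. The sequence families were added after the 8-letter words had been seen. Read depth is unknown.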

Additional observations from a re-analysis of the deposited data

How the results depend on the processing

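No paired analysis was possible because each state has 1 ATAC-seq library. Of 102 recomputed values, 53 moved by less than their error (counts by less than 1.5 times) and 49 by more, and the cause was not tested. Ranking by −log10 p gave a median RA percentile of 95.3, 73.6% in the mirrored list, 14.7% with CTCF, 49.2% in introns, a median distance of 28792 bp, 48 members in dynamic regions and a GC content of 50.8%. Beyond 50 kb from gene starts, these were 87.1, 77.3%, 16.6%, 49.1%, 80883 bp and, for GC, 48.8%. Beyond 5 kb, the percentile was 96.5, the mirrored share 66.8%, the distance 23591 bp and GC 50.2%. With protein-coding starts alone they were 96.7, 66.8%, 60039 bp and 50.2%, with 45.1% in introns. Against a mirrored list of the same length, the 1000 highest had 99, 56.8% mirrored, 4.5% with OCT4-SOX2, 45.2% in introns, 33394 bp and 4 in dynamic regions, and the 10000 highest had 92.2, 73.2%, 2.95%, 29338 bp and 39 in dynamic regions. Ranked in the RA list, the percentile was 96.4 and CTCF 18.2%. By −log10 p of the RA list, the percentile was 93.3. Without centring, 42 members were past 2-fold, a count without a background share. In 100 bp, CTCF was found in 17.6% and OCT4-SOX2 in 2.4%, without mismatch in 5.96% and 0.0200%, and with 1 more mismatch in 36.5% and 13.1%. Leaving out families A and B, chosen after seeing the data, gave CTCF in 20.9%, 50.4% in introns, 10 members in dynamic regions and GC of 50.3%. With alignments of 100 bases, also tried after seeing the data, families A and B joined in 1 group of 721 members. With 200 bases, or 70% or 80% identity, the group of A held 243 to 449 members and that of B 163 to 165. The alternative of 1 line per interval gave no value of its own, since all 163484 LIF intervals are distinct. With 1 library per state and unknown depth, no difference between LIF and RA can be set against replicate error.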
